A study of Homo sapiens with 54 samples.

Results

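The cisplatin (CDDP) response of olaparib resistant (OlaR) cells was compared between 2 triple negative breast cancer (TNBC) lines, SUM1315 and MDA-MB-468, with 12 of the 54 libraries of the series. The libraries were assigned to the comparison by their labels, with no measured value in the rule. They are OlaR SUM1315 cells in 25 µM olaparib without and with 4 µM CDDP and OlaR MDA-MB-468 cells in 15 µM olaparib without and with 2.5 µM CDDP, each with 3 libraries. SUM1315 is BRCA1 mutant and MDA-MB-468 BRCA1 wild type, and both lines carry mutant p53. By the study's methods, the OlaR derivative of each line was raised from parental cells in stepwise higher olaparib and was then kept in the drug, so all 4 groups hold olaparib, a PARP inhibitor, and each response is that to CDDP added to it. CDDP was given for 12 h by the results of the study and overnight by its methods. The question of the comparison is which genes responded to CDDP in OlaR cells of both lines, and which responded differently. The line, BRCA1 status, the doses of both drugs and any sequencing batch change together here and cannot be told apart.

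CDDP binds to DNA bases and crosslinks them within and between strands. Crosslinks stall replication forks and activate the ATR and ATM kinases, and their repair uses nucleotide excision, the Fanconi anemia pathway and homologous recombination (HR), in which BRCA1 acts. Bulky adducts on the transcribed strand also block RNA polymerase II, and damaged cells can change the expression of p53 targets, inflammatory genes and stress genes.

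The libraries held the 3′ ends of mRNA. A value is a gene's number of reads that the authors adjusted to a common library size of 5585170, and is called an adjusted read count. The whole reads behind these values ranged from 2070301 to 4676284 per library, with the lowest number in replicate 3 of MDA-MB-468 with 2.5 µM CDDP. Nothing states that replicates came from separate cultures, so p-values measure the spread between these libraries, which may be technical. Within the groups, correlations of log2 values were 0.975 to 0.979 in SUM1315 and 0.983 to 0.985 in MDA-MB-468, and between CDDP and no CDDP they were 0.958 to 0.963 and 0.971 to 0.974. As for the labelled cell type, the summed adjusted read counts of 14 epithelial markers were 4412 to 4659 in OlaR SUM1315 libraries and 32817 to 33038 in OlaR MDA-MB-468 libraries. CLDN7, GRHL2 and KRT19, genes of epithelial cells, had no read in either SUM1315 group. The sums of 12 mesenchymal markers were 21091 to 21529 in OlaR SUM1315 and 1409 to 1495 in OlaR MDA-MB-468. No epithelial or mesenchymal marker passed the test for a DEG described below, and of 3 hormone receptor genes, ESR1, a lower DEG in SUM1315, held at most 3 reads in any of the 6 libraries and PGR none in any of the 4 groups. The sums of 10 markers of other cell types were 202 to 297 in OlaR SUM1315, 238 to 299 with CDDP, 37.7 to 40.3 in OlaR MDA-MB-468 and 49.2 to 53.1 with CDDP, and ALB, CD3E and LYZ of this list had no read in any group. The epithelial sums with CDDP were 2796 to 3017 in SUM1315 and 27798 to 28087 in MDA-MB-468, below those without CDDP in each line. KRT17, whose values are given below, held most of the SUM1315 sum and of its fall. The 7 epithelial markers tested in SUM1315 had a median log2 fold change of -0.10, and 3 of them were positive. In MDA-MB-468, the 14 tested had a median of -0.12, and 5 were positive. The mesenchymal sums with CDDP were also below those without it, at 18505 to 18996 in SUM1315 and 1306 to 1371 in MDA-MB-468. Whether these changes moved other results was not tested.

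OlaR cells of both lines lost more transcripts than they gained, and nearly all genes called in both lines were losses. With 4 µM CDDP, SUM1315 OlaR cells had 502 differentially expressed genes (DEGs), which are 3.82% of the 13133 tested, with 122 higher (0.929%) and 380 lower (2.89%). The 122 became 77 without replicate 1 of the CDDP libraries, and 67 to 74 in the count tests on recovered reads. MDA-MB-468 OlaR cells with 2.5 µM CDDP had 311 DEGs (2.39% of 13012), with 96 higher (0.738%) and 215 lower (1.65%). A DEG has an adjusted p at or under 0.05 in limma with the Benjamini-Hochberg method and a fold change of at least 2. Of the 11755 genes tested in both lines, 79 were DEGs in both (0.672%), and all 79 moved in the same direction. They are 20.6% of the 383 SUM1315 DEGs and 32.8% of the 241 MDA-MB-468 DEGs tested in both lines, which were 3.26% and 2.05% of those 11755 genes. Lower in both lines were 77 genes, which are 27.3% of the 282 lower SUM1315 DEGs and 44.0% of the 175 lower MDA-MB-468 DEGs (2.4% and 1.49% of the 11755). Higher in both were 2 genes, OSGIN1 and DNAJC22, which are 1.98% of the 101 higher SUM1315 DEGs and 3.03% of the 66 higher MDA-MB-468 DEGs (0.859% and 0.561% of the 11755). Genes tested in 1 line only were 119 of the SUM1315 DEGs and 70 of the MDA-MB-468 DEGs.

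A DEG of 1 line usually had a smaller change in the other. The 101 higher SUM1315 DEGs had a median log2 fold change of 1.38 in SUM1315 and 0.31 in MDA-MB-468, and the 66 higher MDA-MB-468 DEGs had 1.22 in their own line and 0.16 in SUM1315. Among lower DEGs, the medians were -1.54 in SUM1315 and -0.68 in MDA-MB-468 for those of SUM1315, and -1.32 in MDA-MB-468 and -0.93 in SUM1315 for those of MDA-MB-468. The own-line medians were fixed by the DEG limit, while those of the other line come from separate libraries. Over all genes tested in both lines, the medians were 0.01 in SUM1315 and -0.00 in MDA-MB-468. Across these 11755 genes, the 2 responses had a Pearson correlation of 0.348 and a Spearman correlation of 0.295, given as a description, since genes are not independent and each line's 6 libraries enter every point.

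**Figure D1:**
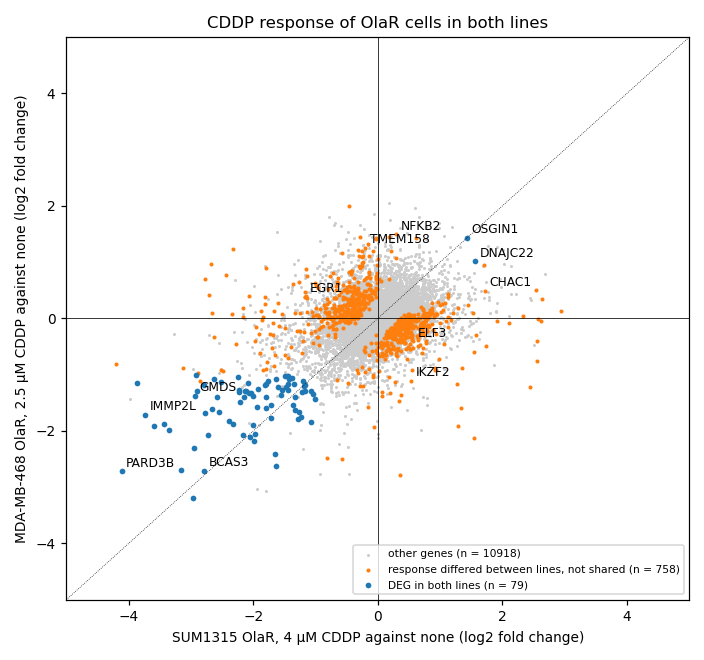
Each point is 1 of 11755 genes, with the log2 fold change of SUM1315 OlaR cells with 4 µM CDDP on the horizontal axis and that of MDA-MB-468 OlaR cells with 2.5 µM CDDP on the vertical axis. The 79 shared DEGs (blue) lie in the lower left but for OSGIN1 and DNAJC22, and orange points mark the other genes whose response differed between the lines, most of them in the upper left and lower right.

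The shared losses were led by genes of very different function that span a long stretch of the genome. THSD4, SCFD2, BCAS3, PARD3B, SNX29, NCKAP5, ANKS1B and TENM1 were named only among shared genes whose groups did not overlap in either line. For these genes the lack of overlap was a condition of the choice and is no separate support. THSD4, which encodes a secreted protein of the extracellular matrix, had 122, 95.0 and 91.0 adjusted read counts in OlaR SUM1315 and 15.7, 7.34 and 10.03 with CDDP. In MDA-MB-468 it had 64.9, 41.2 and 48.7 without and 3.81, 10.8 and 7.88 with CDDP. The groups did not overlap in either line, and THSD4 fell by 3.16 ± 0.37 and by 2.70 ± 0.26 on the log2 scale (SE, n = 3 libraries a group in all comparisons, adjusted p = 1.61e-07 and 2.55e-11, limma). SCFD2, a Sec1 family gene of vesicle traffic, had 104, 141 and 196 in OlaR SUM1315 against 27.7, 15.4 and 12.7 with CDDP, and 67.4, 82.0 and 83.3 against 10.2, 17.1 and 19.0 in MDA-MB-468. Again no CDDP library reached the lowest OlaR library of its line, and SCFD2 fell by 2.94 ± 0.27 and 2.29 ± 0.23 (adjusted p = 1.71e-09 and 8.39e-11, limma).

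BCAS3, a gene first described in breast cancer, fell in both lines from different levels. It had 146, 150.0 and 171 adjusted read counts in OlaR SUM1315 and 20.1, 29.0 and 17.3 with CDDP, a log2 fold change of -2.79 ± 0.19 (adjusted p = 2.33e-12, limma). In MDA-MB-468 it had 34.6, 28.7 and 39.6 without and 3.32, 4.91 and 5.02 with CDDP, a log2 fold change of -2.71 ± 0.38 (adjusted p = 2.85e-07). Each CDDP group lay below its OlaR group, and the difference of the responses was -0.08 ± 0.42 on the log2 scale (adjusted p = 0.938).

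PARD3B, a gene of cell polarity, had 70.4, 67.0 and 80.3 adjusted read counts in OlaR SUM1315 and 4.96, 7.67 and 0.479 with CDDP, and 42.0, 62.4 and 30.1 against 8.73, 1.63 and 10.7 in MDA-MB-468. It fell by 4.11 ± 0.51 and 2.72 ± 0.56 on the log2 scale (adjusted p = 5.33e-07 and 2.87e-04, limma), with at most 6 reads in any CDDP library. SNX29, a sorting nexin gene, had 30.1, 27.2 and 17.5 against 3.91, 10.1 and 2.33 in SUM1315 and 25.6, 27.4 and 43.9 against 3.95, 15.3 and 4.62 in MDA-MB-468. These are log2 fold changes of -2.16 ± 0.55 and -2.07 ± 0.38 (adjusted p = 0.00644 and 4.00e-05), and the groups were apart in both lines. Among the 77 genes, 9 had at most 3 reads in every library of a CDDP group, such as NCKAP5, ANKS1B and TENM1. NCKAP5 had 119, 133 and 111 adjusted read counts in OlaR SUM1315 and 34.4, 10.5 and 8.44 with CDDP, and 6.43, 15.7 and 15.5 in OlaR MDA-MB-468, where no CDDP library held more than 1 read. ANKS1B, at 40.0, 29.6 and 42.2 in OlaR SUM1315, likewise held at most 1 read in the MDA-MB-468 libraries with CDDP. TENM1, a teneurin of cell adhesion, had 217, 200.1 and 192 in OlaR MDA-MB-468 and 42.0, 43.5 and 54.2 with CDDP, and at most 3 reads in the SUM1315 libraries with CDDP, for which no fold is given.

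Other shared genes with more reads fell as well. LPP, which encodes a LIM protein of focal adhesions, had 507, 417 and 448 adjusted read counts in OlaR SUM1315 and 146, 128 and 119.7 with CDDP, and 188, 172 and 166 against 52.9, 62.8 and 58.0 in MDA-MB-468. No values of its groups overlapped, and the log2 fold changes were -1.79 ± 0.11 and -1.59 ± 0.15 (adjusted p = 7.81e-13 and 2.39e-11, limma). VPS13B, a lipid transfer protein gene, had 104, 111 and 122 against 38.2, 32.8 and 29.96 in SUM1315 and 174, 161 and 148 against 53.8, 59.1 and 51.6 in MDA-MB-468. It fell by 1.71 ± 0.28 and 1.54 ± 0.15 (adjusted p = 3.94e-05 and 3.19e-11). DPYD, the first enzyme of pyrimidine breakdown, had 73.3, 55.5 and 62.6 against 15.8, 12.2 and 7.51 in SUM1315 and 49.2, 48.2 and 62.4 against 15.1, 12.5 and 15.3 in MDA-MB-468. Its log2 fold changes were -2.38 ± 0.21 and -1.82 ± 0.27 (adjusted p = 6.74e-10 and 8.14e-07), and all CDDP libraries were below all OlaR libraries of their line.

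Over the 77 genes lower in both lines, the median log2 fold change was -1.97 in SUM1315 and -1.39 in MDA-MB-468, and 56 fell more in SUM1315 and 21 more in MDA-MB-468. The difference of the responses passed the test for 13 of them, in which SUM1315 fell more in each case. Over all 11755 genes tested in both lines it passed for 6.56%, with the SUM1315 response below in 3.31%. In 78 of the 79 shared genes the 3 libraries of each group did not overlap in either line. Over all genes tested, 18.6% had CDDP libraries that were all lower in SUM1315, and the share in MDA-MB-468 was also 18.6%. At the lower CDDP dose (2 µM in SUM1315, 1 µM in MDA-MB-468) the mean of all 77 genes in SUM1315 and of 75 in MDA-MB-468 was below that of OlaR cells without CDDP, which is a description, since the same OlaR libraries entered the choice of these genes. GMDS, the enzyme that starts GDP-fucose synthesis, had 254, 257 and 207 adjusted read counts in OlaR SUM1315 and 27.6, 37.2 and 26.7 with 4 µM CDDP, with a mean of 119.5 ± 46.3 (SD) at 2 µM. In MDA-MB-468 it had 724, 729 and 748 against 264, 294 and 288, with a mean of 465 ± 36.5 at 1 µM. The groups were apart, but the fall of 2.94 ± 0.23 on the log2 scale in SUM1315 was larger than that of 1.38 ± 0.08 in MDA-MB-468, by 1.56 ± 0.25 (adjusted p of the difference 1.17e-04, limma).

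Span, the distance from the first to the last annotated base of a gene, was not used to call DEGs. The interest in long genes came from earlier results of these data. The 77 genes lower in both lines had a median span of 466 kb, against 29.4 kb over the 11600 genes tested in both lines that have a span in the annotation, and 68 of the 77 (88.3%) spanned at least 200 kb, against 6.33% of those 11600. For example, GMDS lies at chromosome 6, 1623806 to 2245605, LPP at chromosome 3, 188153021 to 188890671, and PARD3B at chromosome 2, 204545475 to 205620162 (GRCh38.p14). The 2 shared genes under 100 kb, DUSP19 at 21.3 kb and GNB1L at 71.7 kb, were singled out after their values were seen. GNB1L had 80.5, 87.0 and 97.7 against 41.3, 66.7 and 26.0 in SUM1315 and 90.8, 80.3 and 99.0 against 36.8, 42.8 and 29.7 in MDA-MB-468. Its SUM1315 call rested on single libraries, since without replicate 3 of OlaR and of CDDP the log2 fold change of -1.07 became -0.99 and -0.74. The SUM1315 call of DUSP19, with at most 15 reads in a SUM1315 library, was lost without any of 4 libraries, and its log2 fold change of -1.21 became -1.12, -1.24 and -1.28 without OlaR replicates 1, 2 and 3 and -0.63 without CDDP replicate 1 (adjusted p = 0.0776 to 0.374). In MDA-MB-468 the call of DUSP19, at a log2 fold change of -1.30, was lost without OlaR replicate 3 and without CDDP replicate 3, with values of -1.22 and -1.05.

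The median response was lowest in the classes of longest span in both lines. Among genes over 500 kb, 81 of 175 (46.3%) were lower DEGs in SUM1315 and 57 of 133 (42.9%) in MDA-MB-468, with medians of -1.08 and -1.02 on the log2 scale. From 200 to 500 kb, 117 of 751 genes (15.6%) and 87 of 685 (12.7%) were lower DEGs. From 100 to 200 kb, the median was -0.08 in SUM1315 and -0.22 in MDA-MB-468, and under 10 kb it was -0.02 and 0.10. Under 10 kb, 42 of 2943 genes (1.43%) were higher and 47 (1.60%) lower DEGs in SUM1315, and 42 of 2940 (1.43%) were higher and 10 (0.340%) lower in MDA-MB-468. In single libraries, the median of genes over 500 kb against the mean of the OlaR libraries was -0.983, -1.25 and -1.12 at 4 µM and -0.548, -0.448 and -0.658 at 2 µM in SUM1315. It was -0.968, -0.928 and -1.003 at 2.5 µM and -0.360, -0.373 and -0.385 at 1 µM in MDA-MB-468. No CDDP library overlapped with the OlaR libraries or with those of the other dose in either line. With a mean value of at least 50, 39 of 82 genes over 500 kb were lower DEGs in SUM1315 and 25 of 66 in MDA-MB-468.

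**Figure D2:**
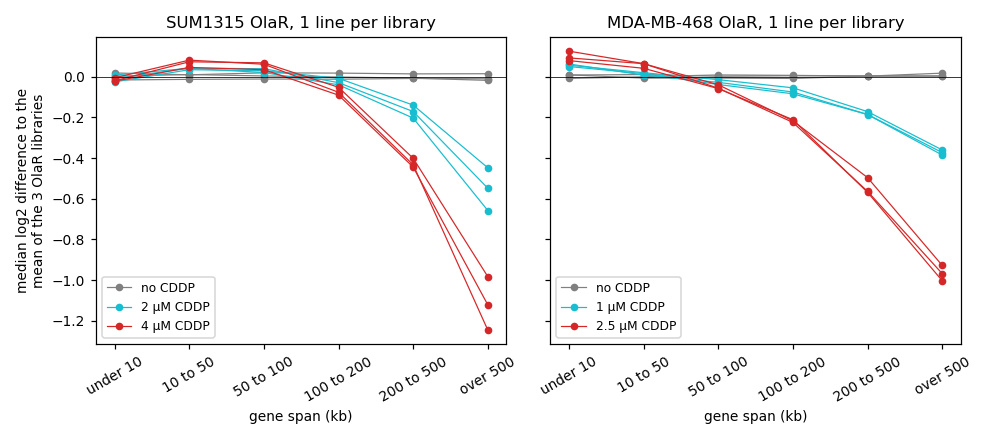
Median log2 difference of the genes in each span class (horizontal axis, kb) to the mean of the 3 OlaR libraries without CDDP, with 1 line per library, SUM1315 on the left and MDA-MB-468 on the right. The 6 libraries with CDDP of each line lie below the OlaR libraries from 200 kb on, those of the higher dose between -0.928 and -1.25 over 500 kb.

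A list of 40 very long and fragile-site genes, chosen with earlier results of these data known, was read beside this. Lower DEGs were 18 of its 29 genes tested in SUM1315 and 14 of 23 in MDA-MB-468, against 2.89% and 1.65% of all genes, none were higher, and the medians were -1.68 and -1.59. Of the 20 tested in both lines, 12 passed the adjusted p in both and were lower, against 3.5% of all genes, among them the fragile-site gene IMMP2L, which encodes a subunit of a mitochondrial peptidase. IMMP2L had 130.3, 129.6 and 118 adjusted read counts in OlaR SUM1315 and 16.7, 3.53 and 9.85 with CDDP, and 57.6, 74.0 and 53.9 against 14.5, 18.5 and 21.7 in MDA-MB-468. It fell by 3.73 ± 0.36 and 1.71 ± 0.37, with no overlap, and the difference of -2.02 ± 0.52 (adjusted p = 0.0122, limma) was -1.48 (adjusted p = 0.0701) without replicate 2 of SUM1315 with CDDP. EXOC4, an exocyst subunit, had 386, 349 and 318 against 74.2, 33.2 and 50.7 in SUM1315 and 279, 296 and 297 against 82.5, 116 and 76.7 in MDA-MB-468. Its groups were also apart, and its fall was larger in SUM1315 by 1.11 ± 0.24 (adjusted p = 0.00332).

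Not all long genes followed this pattern in both lines. PTPRG, a receptor tyrosine phosphatase gene of 736 kb, had 99.7, 142 and 145 adjusted read counts in OlaR SUM1315 and 44.4, 30.9 and 43.0 with CDDP, but 14.3, 14.7 and 12.3 against 7.31, 15.9 and 18.4 in MDA-MB-468. It fell by 1.68 ± 0.20 in SUM1315, its MDA-MB-468 groups overlapped at 4 to 13 reads a library, and the difference was -1.61 ± 0.39 (adjusted p = 0.00867, limma). FOXP1, a forkhead transcription factor gene of 629 kb, showed the converse. It had 996, 1000.3 and 926 against 951, 1044 and 961 in SUM1315, which overlap, and 251, 267 and 255 against 157, 122 and 126 in MDA-MB-468, which do not. Its response was higher in SUM1315 by 0.95 ± 0.17 (adjusted p = 5.55e-04). ETV6 (246 kb) and IKZF2 (153 kb), both transcription factor genes, were among the 8 genes with the smallest p of the difference on that side. ETV6 had 780.4, 806 and 788 against 703, 681 and 674 in SUM1315 and 959, 847 and 861 against 465, 446 and 469 in MDA-MB-468, a difference of 0.74 ± 0.11 (adjusted p = 5.75e-05). IKZF2 had 54.0, 58.9 and 38.8 against 75.7, 70.9 and 71.5 in SUM1315 and 129.7, 122 and 101 against 53.6, 48.6 and 60.3 in MDA-MB-468. It fell by 1.10 ± 0.16 in MDA-MB-468 (adjusted p = 3.65e-07), its SUM1315 log2 fold change was 0.54 ± 0.24 (adjusted p = 0.121), and the difference was 1.64 ± 0.27 (adjusted p = 1.73e-04).

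Few gains were shared at the 2-fold limit. OSGIN1, an oxidative stress gene that the factor NRF2 induces, had 10.6, 7.48 and 9.56 adjusted read counts in OlaR SUM1315 and 23.9, 24.7 and 31.3 with CDDP, and 39.7, 39.6 and 51.6 against 132, 103 and 122 in MDA-MB-468. The CDDP libraries were above the OlaR libraries in both lines, and OSGIN1 rose by 1.44 ± 0.37 and 1.43 ± 0.17 on the log2 scale (adjusted p = 0.00688 and 9.56e-09, limma), with a difference of 0.00 ± 0.39. DNAJC22, a co-chaperone gene, had 5.63, 11.8 and 13.6 against 53, 30.4 and 17.6 in SUM1315 and 17.6, 16.9 and 6.62 against 27.5, 29.5 and 23.1 in MDA-MB-468. Its log2 fold changes were 1.56 ± 0.44 and 1.01 ± 0.33 (adjusted p = 0.0123 and 0.0244). They rested on single libraries, being 1.21 and 1.17 in SUM1315 without replicate 1 of OlaR and of CDDP, and 0.60, 0.99 and 0.94 in MDA-MB-468 without OlaR replicate 3 and CDDP replicates 1 and 2, all with an adjusted p over 0.05.

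The promoter of OSGIN1, with its start as given by RefSeq on GRCh38.p14, is shown because OSGIN1 rose in both lines. The stretch at chr16:83953113-83953179, plus strand, has 1 match to the AP-1 motif TGANTCA (in capitals), which the related NRF2 motif can overlap, 97 bases before the start. On either strand, TGANTCA is found in 7.76% of all 27305 RefSeq promoters and 4.34% of 8993 promoters of genes tested in both lines. It is found in 6 of 91 (6.59%) promoters of higher SUM1315 DEGs and 7 of 66 (10.6%) of higher MDA-MB-468 DEGs. A match is a description of the letters and not of a bound site.
OSGIN1: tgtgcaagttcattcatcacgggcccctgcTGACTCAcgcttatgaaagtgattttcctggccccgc

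Below the 2-fold limit, many genes of DNA replication rose in both lines. By the adjusted p alone, 892 (7.59%) and 909 (7.73%) of the 11755 genes were higher in SUM1315 and MDA-MB-468 and 197 (1.68%) in both. All gene lists here were chosen with earlier results of these data known, so their counts are a description. In a list of 43 E2F targets and replication genes, 20 and 29 of the 42 tested in both lines were higher, none lower, and 16 (38.1%) were higher in both. They include the replication licensing genes CDC6, CDT1, MCM3, MCM4 and MCM10, the ribonucleotide reductase genes RRM1 and RRM2, and the clamp gene PCNA, and the list's medians were 0.38 and 0.35. Without single libraries of SUM1315 the count of 16 became 11 to 14, and without any MDA-MB-468 library it stayed 16. CDC6 and RRM2 were chosen as examples after their values were seen. CDC6 had 683, 712 and 639 adjusted read counts in OlaR SUM1315 and 1062, 965 and 1010.3 with CDDP, and 589, 578 and 547 against 967, 1030.1 and 986 in MDA-MB-468. The groups were apart, and CDC6 rose by 0.58 ± 0.09 and 0.80 ± 0.07 (adjusted p = 2.05e-05 and 3.00e-12, limma). RRM2 had 1589.6, 1482 and 1682 against 2363, 2461 and 2168 in SUM1315 and 2710.0, 2770.5 and 2636 against 4291, 4362 and 4126 in MDA-MB-468. It rose by 0.56 ± 0.10 and 0.65 ± 0.05, again without overlap.

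The E2F list held 3 DEGs in SUM1315, all higher, and none in MDA-MB-468, beside 0.929% and 0.738% of all genes. FAM111B, a protease gene of replication, had 90.2, 139 and 119 adjusted read counts in OlaR SUM1315 and 439, 344 and 354 with CDDP, and 865, 803 and 822 against 1529, 1718 and 1571 in MDA-MB-468. It rose by 1.71 ± 0.22 in SUM1315 and, under the 2-fold limit, by 0.95 ± 0.08 in MDA-MB-468 (adjusted p = 9.89e-07 and 6.50e-14, limma), and no groups overlapped. CLSPN, the claspin gene of the ATR checkpoint, had 472, 349.8 and 347 against 1000.4, 620.0 and 756 in SUM1315 and 916, 906 and 893 against 1532, 1633 and 1738 in MDA-MB-468. Its log2 fold changes of 1.01 ± 0.20 and 0.85 ± 0.07 straddled the limit, and that of SUM1315 became 0.94, 0.93 and 0.83 without OlaR replicates 2 and 3 and CDDP replicate 1. The third, CCNE2, the cyclin E2 gene, had log2 fold changes of 1.16 ± 0.36 and 0.95 ± 0.19, and its SUM1315 call was lost without OlaR replicates 1 and 3 and CDDP replicate 3 (1.02, 1.19 and 0.99). Of the 42 list genes tested in both lines, the test of the difference called FAM111B, with the SUM1315 response above, and TK1, with it below. Over all genes these calls were 3.25% and 3.31%.

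**Figure D3:**
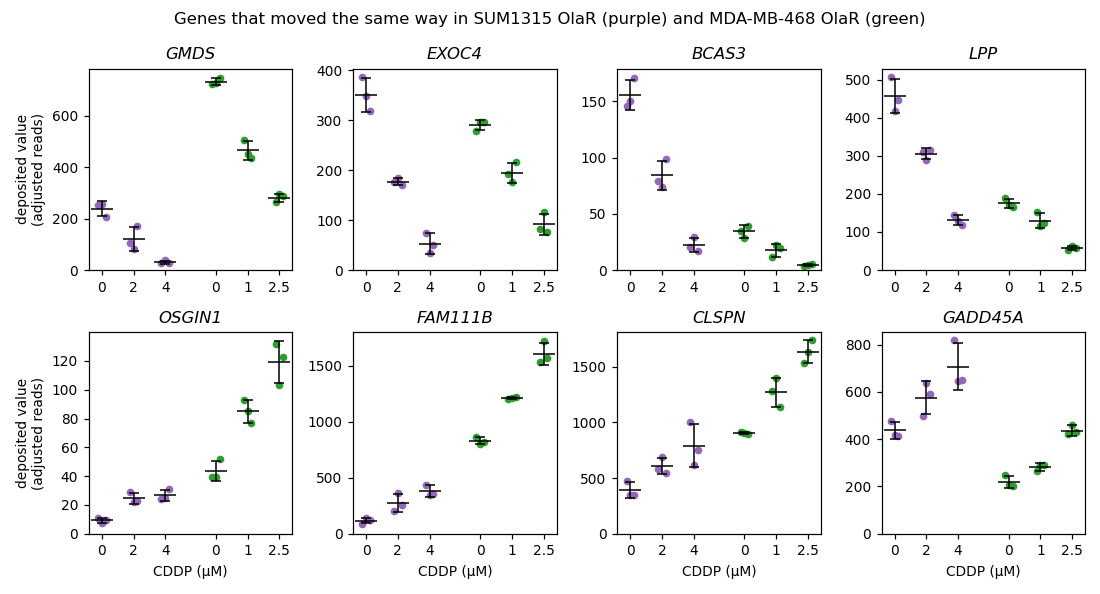
Adjusted read counts of 4 genes that fell in both lines (top) and 4 that rose by the adjusted p in both (bottom), by CDDP dose (horizontal axis, µM), with SUM1315 OlaR in purple and MDA-MB-468 OlaR in green. Points are libraries and bars the mean and SD of 3, and means at the lower dose of GMDS (119.5 in SUM1315 and 465 in MDA-MB-468) lie between those without CDDP and at the higher dose.

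Of 38 mitotic genes, 25 fell in MDA-MB-468 and 6 in both lines, all by less than 2-fold. This list of G2/M and mitotic genes held no DEG in either line, and the medians were -0.08 in SUM1315 and -0.25 in MDA-MB-468. By the adjusted p alone, 25 were lower and none higher in MDA-MB-468, where 11.4% of all genes were lower, while 7 were lower and 3 higher in SUM1315, where 9.43% were lower. Lower in both were 6, AURKA, CCNB1, CDC20, CKS2, KIF20A and TPX2, beside 3.5% of all genes. CCNB1, the cyclin of mitotic entry, had 1816, 1647 and 1861 adjusted read counts in OlaR SUM1315 and 1055, 1184 and 1279.7 with CDDP, and 1064, 1182 and 1257 against 861, 809 and 843 in MDA-MB-468. It was chosen after its values were seen, its groups did not overlap, and it fell by 0.60 ± 0.09 and 0.47 ± 0.06 on the log2 scale (adjusted p = 7.40e-06 and 1.67e-07, limma).

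The test of the difference called 5 of the 38 mitotic genes, against 6.56% of all genes, with the SUM1315 response above in ANLN, ASPM, ECT2 and KIF14 and below in CDC25B. The call of ECT2 was lost in 3 count tests and when any 1 of 7 libraries was left out, and that of CDC25B without OlaR replicate 1 of MDA-MB-468. KIF14, a kinesin of cytokinesis, had 304, 258 and 189.9 adjusted read counts in OlaR SUM1315 and 418, 324 and 304 with CDDP, which touch at 304, and 608, 507 and 647 against 396, 390.1 and 442 in MDA-MB-468, which do not overlap. It fell in MDA-MB-468 (-0.51 ± 0.10, adjusted p = 9.24e-05, limma), was at 0.49 ± 0.14 in SUM1315, and the difference was 1.00 ± 0.18 (adjusted p = 4.65e-04). ASPM, a spindle pole gene, had a difference of 0.57 ± 0.14 (adjusted p = 0.00704), and ANLN, the anillin gene of the contractile ring, of 0.51 ± 0.11 (adjusted p = 0.00387). The SUM1315 rise of KIF14 was lost without OlaR replicate 3 and without CDDP replicate 1 (0.30 and 0.35).

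Genes of the DNA damage response were read in 3 lists. The list of 38 HR and Fanconi genes held 1 higher (BRCA2) and 2 lower (FANCC, RAD51B) DEGs in SUM1315 and none in MDA-MB-468, against 3.82% and 2.39% of all genes, with medians of 0.37 and 0.08. The 23 checkpoint genes and the 25 nucleotide excision and translesion genes tested held no DEG in either line, with medians of 0.32 and -0.00 and of 0.14 and 0.01. BRCA2, a mediator of HR, had 44.1, 63.1 and 65.7 adjusted read counts in OlaR SUM1315 and 127, 99.5 and 140.1 with CDDP, and 739, 669 and 626 against 783, 884 and 798 in MDA-MB-468. The groups were apart, with log2 fold changes of 1.08 ± 0.20 and 0.28 ± 0.08 (adjusted p = 3.20e-04 and 0.00868, limma), of which the first was 0.90 and 0.97 without OlaR replicate 1 and CDDP replicate 3. The second lost the adjusted p without OlaR replicate 3 and CDDP replicate 2 (0.22 and 0.23). RAD51B, an HR gene of 863 kb, had 57.1, 62.8 and 72.1 against 23.3, 23.9 and 11.5 in SUM1315 and 145, 132 and 105 against 72.8, 66.9 and 62.6 in MDA-MB-468. It fell by 1.72 ± 0.32 and 0.90 ± 0.19 (adjusted p = 2.31e-04 and 4.79e-04), with no overlap.

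The kinase genes ATM and ATR differed in response between the lines. ATR had 119, 99.2 and 118 adjusted read counts in OlaR SUM1315 and 159, 199.7 and 174 with CDDP, and 278, 271 and 267 against 201, 224 and 240.2 in MDA-MB-468. It rose in SUM1315 by 0.66 ± 0.17 (adjusted p = 0.0081, limma), was at -0.30 ± 0.11 in MDA-MB-468, and the groups were apart in opposite directions, with a difference of 0.96 ± 0.20 (adjusted p = 0.00242). ATM had 61.3, 74.4 and 58.5 against 94.1, 82.0 and 86.1 in SUM1315 and 195, 196 and 209 against 139.5, 161 and 174 in MDA-MB-468, again apart in opposite directions. Its log2 fold changes were 0.43 ± 0.15 and -0.34 ± 0.11, and the difference was 0.78 ± 0.18 (adjusted p = 0.00546). Both differences kept an adjusted p at or under 0.05 in the alternative fits and without any single library. The responses within a line were less stable. The SUM1315 rise of ATM lost the adjusted p without OlaR replicates 1 and 3 and without each CDDP replicate (0.365 to 0.477). In MDA-MB-468, the fall of ATR lost it without each OlaR replicate and CDDP replicates 1 and 2 (-0.230 to -0.313). That of ATM lost it without OlaR replicate 3 and CDDP replicate 1 (-0.31 and -0.26).

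Among the genes that the study names for these pathways, RAD51AP1, a gene of HR, had 270.2, 286 and 290.1 adjusted read counts in OlaR SUM1315 and 550.4, 461 and 408 with CDDP, and 884, 844 and 822 against 1089.7, 1104 and 1255 in MDA-MB-468. It rose by 0.73 ± 0.14 and 0.43 ± 0.07 on the log2 scale (adjusted p = 3.04e-04 and 1.66e-05, limma), with no overlap. PARP1 was at 0.04 ± 0.09 and -0.00 ± 0.07, and POLH, the gene of a translesion polymerase, at -0.18 ± 0.15 and -0.10 ± 0.12. GADD45A, a DNA damage inducible gene, had 478, 419 and 415 against 821, 647 and 651 in SUM1315 and 250.02, 204 and 203 against 420.3, 461 and 429.6 in MDA-MB-468. It rose by 0.68 ± 0.12 and 1.00 ± 0.11 (adjusted p = 1.68e-04 and 7.78e-10), just under the DEG limit in MDA-MB-468, and its groups were apart.

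The list of 28 p53 targets had medians of 0.23 in SUM1315 and 0.29 in MDA-MB-468. It held 1 higher DEG in each line, against 0.929% and 0.738% of all genes. PMAIP1, the NOXA gene of apoptosis, had 65.2, 65.7 and 61.2 adjusted read counts in OlaR SUM1315 and 136, 149.8 and 122 with CDDP, and 97.2, 128 and 92.8 against 151, 186 and 159.6 in MDA-MB-468. Its log2 fold changes were 1.07 ± 0.13 and 0.65 ± 0.16 (adjusted p = 4.22e-07 and 0.00189, limma), that of SUM1315 being 0.99 without CDDP replicate 2. CDKN1A, the p21 gene, was the DEG of MDA-MB-468. It had 969, 965 and 877 against 1157, 1199 and 1089 in SUM1315 and 41.9, 46.3 and 39.1 against 101, 98.6 and 72.4 in MDA-MB-468, and the groups did not overlap. Its log2 fold change was 1.07 ± 0.21 in MDA-MB-468 (0.98 without CDDP replicate 1) and 0.29 ± 0.08 in SUM1315, the latter over the adjusted p without OlaR replicate 3 (0.25) and CDDP replicate 2 (0.26). The difference of -0.77 ± 0.22 (adjusted p = 0.0213) was also over 0.05 without OlaR replicate 3 and CDDP replicates 1 and 2 of MDA-MB-468 (-0.72, -0.69 and -0.71). PHLDA3, an inhibitor of AKT, moved in opposite directions, with 369, 399 and 420.3 against 272, 302 and 293 in SUM1315 and 232, 210.4 and 239.7 against 305, 312 and 336 in MDA-MB-468. It fell by 0.45 ± 0.11 and rose by 0.48 ± 0.10, and the difference was -0.94 ± 0.15 (adjusted p = 1.08e-04).

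By the test of the difference itself, 771 of the 11755 genes responded differently in the lines (6.56%). The SUM1315 response was above that of MDA-MB-468 in 382 (3.25%) and below it in 389 (3.31%). This split differed between the alternatives. With values scaled by TMM over the 12 libraries, 448 were above and 353 below. With edgeR on the recovered reads, these were 214 and 256 with TMM and 202 and 291 with DESeq2 size factors. Of the 771, 576 (74.7%) had log2 fold changes of opposite sign, 617 (80.0%) were DEGs in neither line, 100 were DEGs in SUM1315 only, 41 in MDA-MB-468 only and 13 in both. Without replicate 1 of SUM1315 with 4 µM CDDP the 771 became 497, and edgeR on the recovered reads called 470. By the adjusted p alone, 48 genes (0.408%) passed in both lines in opposite directions. The genes whose SUM1315 response was above had a median span of 63.9 kb and those below of 13.8 kb. Under 10 kb, 168 of 2566 genes (6.55%) were below and 27 (1.05%) above, while from 100 to 200 kb 15 of 1288 (1.17%) were below and 77 (5.98%) above.

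On the upper side, the difference was called for ELF3, an epithelial transcription factor gene. It had 138, 149 and 145 adjusted read counts in OlaR SUM1315 and 213, 231 and 199 with CDDP, and 3114, 3081 and 3209 against 2349, 2301 and 2449.8 in MDA-MB-468. The groups were apart in opposite directions, and the difference was 0.98 ± 0.14 (adjusted p = 2.12e-05, limma), from 0.57 ± 0.17 in SUM1315 and -0.41 ± 0.06 in MDA-MB-468. The SUM1315 rise was over the adjusted p without OlaR replicate 1 (0.54) and CDDP replicate 2 (0.51). ATP1B1, a sodium pump subunit, had 559, 521 and 613 against 886, 789 and 801 in SUM1315 and 2805, 2878 and 2896 against 2286, 2358 and 2367 in MDA-MB-468. It rose by 0.55 ± 0.13 and fell by 0.29 ± 0.06, and the difference was 0.84 ± 0.14 (adjusted p = 1.47e-04). ARHGAP29, a GTPase activating protein gene, had a difference of 0.77 ± 0.14 (adjusted p = 4.80e-04) and ERGIC2, a gene of the early secretory pathway, of 0.92 ± 0.15 (adjusted p = 1.47e-04).

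Amino acid stress genes included DEGs in SUM1315 and none in MDA-MB-468. The list of 30 ATF4 stress genes had medians of 0.36 and 0.12. In SUM1315 it held 3 higher DEGs (ATF3, CHAC1, CTH) and 1 lower DEG (SLC7A5) of 28, against 0.929% and 2.89% of all genes. Of its 28 genes tested in both lines, the response was higher in SUM1315 for 5 and lower for 2 by the test of the difference, against 3.25% and 3.31% of all genes. Of these, CTH was lost in 3 count tests and when any 1 of 8 libraries was left out, and ATF5 and SLC7A5 with any 1 of 7. CHAC1, which degrades glutathione, had 26.7, 29.2 and 27.3 adjusted read counts in OlaR SUM1315 and 66.4, 130.2 and 95.8 with CDDP, and 70.6, 71.3 and 76.2 against 104, 104 and 101 in MDA-MB-468. The groups were apart in both lines, and CHAC1 rose by 1.73 ± 0.18 and 0.50 ± 0.13 (adjusted p = 1.76e-08 and 0.00487, limma), with a difference of 1.23 ± 0.22 (adjusted p = 4.80e-04). TRIB3, a pseudokinase gene that ATF4 induces, had 163, 175 and 228 against 302, 317 and 365 in SUM1315 and 444, 382 and 446 against 475, 453 and 398 in MDA-MB-468, where the groups overlapped. It rose by 0.81 ± 0.12 in SUM1315 and was at 0.06 ± 0.07 in MDA-MB-468, a difference of 0.75 ± 0.14 (adjusted p = 7.96e-04). NUPR1, a stress regulator gene, had 61.5, 52.9 and 83.3 against 135, 106 and 117 in SUM1315 and 296, 338 and 352 against 369.9, 364 and 337 in MDA-MB-468, and differed by 0.74 ± 0.17 (adjusted p = 0.0061). SLC7A11, the cystine transporter gene, differed by 0.71 ± 0.18 (adjusted p = 0.0101).

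ATF3, a stress induced transcription factor gene, had 84.7, 86.9 and 63.0 adjusted read counts in OlaR SUM1315 and 191, 189 and 146 with CDDP, and 62.6, 66.6 and 84.1 against 145, 150.3 and 114 in MDA-MB-468. It rose in both lines, by 1.16 ± 0.18 and 0.93 ± 0.17 (adjusted p = 2.44e-05 and 2.69e-05, limma), and the difference was 0.22 ± 0.25 (adjusted p = 0.649). CTH, a gene of cysteine synthesis, had 24.9, 23.1 and 50.5 against 77.1, 86.1 and 67.9 in SUM1315 and rose by 1.29 ± 0.26 (adjusted p = 7.29e-04), and in MDA-MB-468 it was at 0.18 ± 0.19. SLC7A5, an amino acid transporter gene, went the other way, with 2018, 2086 and 2009.7 against 862, 1152 and 986 in SUM1315. Its log2 fold change was -1.04 ± 0.13 (-0.93 without CDDP replicate 1), and -0.44 ± 0.10 in MDA-MB-468. The CARE motif TGATGNAA, which ATF4 can bind with C/EBP partners, was found on either strand in 3.67% of all promoters. It was found in 1.55% of the promoters of genes tested in both lines. Among higher DEGs it was found in 4 of 91 (4.40%) in SUM1315 and in 1 of 66 (1.52%) in MDA-MB-468. The promoters of CHAC1 (chr15:40953232-40953299) and ATF3 (chr1:212565186-212565253) are shown since these DEGs have it, 209 and 191 bases before the start, on the plus strand of GRCh38.p14 with the match in capitals.
CHAC1: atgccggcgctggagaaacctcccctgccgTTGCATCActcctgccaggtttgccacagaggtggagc
ATF3: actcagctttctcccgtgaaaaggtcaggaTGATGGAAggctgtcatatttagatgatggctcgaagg

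Fewer NF-κB targets could be tested in MDA-MB-468 than in SUM1315. Of the list of 30, all were tested in SUM1315 and 17 in MDA-MB-468, and higher DEGs were BIRC3, CCL20, CXCL1, LIF and TRAF1 in SUM1315 and CXCL8 and NFKB2 in MDA-MB-468, against 0.929% and 0.738% of all genes. The list was chosen with earlier results of these data known. The study names BIRC3, CCL20 and TRAF1 from its own CDDP DEGs of parental and OlaR SUM1315 cells, so their calls are no separate support. The call of CXCL8 was lost in 9 of 22 alternatives, 5 of them without a single library, and that of LIF when any 1 of 4 libraries was left out. None was lower, and the medians were 0.43 and 0.20. CCL20, a chemokine gene, had 35.3, 28.7 and 33.4 adjusted read counts in OlaR SUM1315 and 119.8, 72.1 and 70.6 with CDDP, and rose by 1.36 ± 0.28 (adjusted p = 8.63e-04, limma), while no MDA-MB-468 library held more than 3 reads. CXCL1, a neutrophil chemokine gene, had 1169.7, 1089 and 1093 against 2399.7, 2255 and 2097 in SUM1315 and no read in either MDA-MB-468 group. Its log2 fold change of 1.01 ± 0.11 was 0.99, 0.99 and 0.96 without OlaR replicates 2 and 3 and CDDP replicate 1. TRAF1, an adaptor of TNF receptors, likewise had no read in MDA-MB-468 and a log2 fold change of 1.10 ± 0.34 in SUM1315, lost without OlaR replicate 3 and CDDP replicate 1 (0.86 and 0.78). Since these genes were not tested in MDA-MB-468, no difference was tested for them.

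BIRC3, the cIAP2 gene, had 242, 344 and 244 adjusted read counts in OlaR SUM1315 and 676, 526 and 506 with CDDP, and 107, 86.4 and 92.3 against 93.3, 116 and 107 in MDA-MB-468. The SUM1315 groups were apart and those of MDA-MB-468 overlapped, with log2 fold changes of 1.05 ± 0.13 and 0.15 ± 0.25 (adjusted p = 2.74e-07 and 0.753, limma). The first was 0.96, 0.96 and 0.92, under the 2-fold limit, without OlaR replicates 1 and 3 and CDDP replicate 1. The difference of 0.90 ± 0.28 (adjusted p = 0.0391) ranged from 0.77 to 0.92 and was over 0.05 without any one of 7 libraries, which are OlaR replicates 1 and 3 and CDDP replicate 1 of SUM1315 and replicates 1 and 3 of both MDA-MB-468 groups. NFKB2, the p100 subunit gene, showed the opposite, with 224, 166 and 225 against 256, 242 and 248 in SUM1315 and 24.5, 14.9 and 11.4 against 38.5, 64.4 and 42.5 in MDA-MB-468. It rose by 1.49 ± 0.30 in MDA-MB-468 (adjusted p = 2.26e-04), was at 0.29 ± 0.13 in SUM1315 (adjusted p = 0.129), and the difference was -1.20 ± 0.30 (adjusted p = 0.00941). TNFAIP2, a gene that TNF induces, differed by 0.70 ± 0.18 in the other direction (adjusted p = 0.00948).

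The NF-κB consensus was found in 5.72% of all RefSeq promoters and in 6.45% of those of genes tested in both lines. It was found in 9 of 91 promoters of higher (9.89%) and 16 of 267 of lower (5.99%) SUM1315 DEGs. In MDA-MB-468 it was found in 1 of 66 of higher (1.52%) and 17 of 167 of lower (10.2%) DEGs. The promoters of BIRC3 (chr11:102317255-102317388) and CCL20 (chr2:227813733-227813802), GRCh38.p14, plus strand, are shown for the genes that rose in SUM1315. BIRC3 has 2 matches (in capitals), 199 and 135 bases before the start, and CCL20 has 1 at 79 bases.
BIRC3: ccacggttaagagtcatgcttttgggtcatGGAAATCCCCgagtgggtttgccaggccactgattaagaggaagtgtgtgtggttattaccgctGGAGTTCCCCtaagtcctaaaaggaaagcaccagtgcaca
CCL20: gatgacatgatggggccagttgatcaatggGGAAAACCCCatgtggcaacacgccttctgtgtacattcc

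Of the immediate early genes, 8 rose in MDA-MB-468 by the adjusted p alone, and 3 rose and 3 fell in SUM1315. The 23 immediate early and AP-1 genes had medians of 0.04 and 0.42, and the counts are of the 22 tested in both lines, where 7.73% of all genes were higher in MDA-MB-468, and 7.59% higher and 9.43% lower in SUM1315. The list held 1 higher DEG (FOS) and 1 lower DEG (EGR1) in SUM1315, against 0.929% and 2.89% of all genes. By the adjusted p alone, FOS, a member of AP-1, and MAFF were higher in both lines, and EGR1 and JUND moved in opposite directions. EGR1, a zinc finger factor of the growth factor response, had 56.4, 64.6 and 53.5 adjusted read counts in OlaR SUM1315 and 27.2, 23.4 and 25.9 with CDDP, and 69.9, 92.5 and 78.9 against 104, 93.4 and 121 in MDA-MB-468. It fell by 1.16 ± 0.14 in SUM1315 (adjusted p = 2.21e-07, limma), was at 0.40 ± 0.13 in MDA-MB-468, and the difference was -1.56 ± 0.20 (adjusted p = 4.16e-06). JUND, a member of AP-1, had 2969.7, 2759.7 and 2834 against 1499, 2209 and 1945 in SUM1315 and 1406, 1333 and 1496 against 1968, 1820.1 and 1900.3 in MDA-MB-468. The groups were apart in opposite directions, and JUND fell by 0.62 ± 0.12 and rose by 0.43 ± 0.08, a difference of -1.04 ± 0.16 (adjusted p = 9.07e-05). MAFF, another bZIP factor, rose in both, from 322, 309 and 373 to 504, 576 and 499.9 in SUM1315 and from 76.5, 81.9 and 71.8 to 185, 147 and 181 in MDA-MB-468, where it was a DEG (1.14 ± 0.21, adjusted p = 5.35e-05).

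The 18 MAPK feedback genes had medians of -0.04 and 0.22. Their 1 DEG was DUSP6, a phosphatase of ERK, in MDA-MB-468, where 2.39% of all genes were DEGs. The study names DUSP6 from its own CDDP DEGs of this line, so the call is no separate support. DUSP6 had 1219, 1128 and 1224 adjusted read counts in OlaR SUM1315 and 1140.4, 1281 and 1129.6 with CDDP, and 29.7, 21.3 and 30.1 against 74.3, 53.7 and 51.1 in MDA-MB-468. Its MDA-MB-468 log2 fold change of 1.11 ± 0.38 (adjusted p = 0.0316, limma) was 0.94 to 1.21 and over the adjusted p without OlaR replicates 1 and 2 and without each of the 3 CDDP libraries, and the difference from SUM1315 did not pass (-1.12 ± 0.40, adjusted p = 0.0767). SPRY2, an inhibitor of receptor kinase signalling, did pass. It had 165, 195 and 191 against 138, 113 and 96.5 in SUM1315 and 65.8, 58.2 and 77.0 against 82.7, 99.9 and 103 in MDA-MB-468, a difference of -1.17 ± 0.27 (adjusted p = 0.00466).

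**Figure D4:**
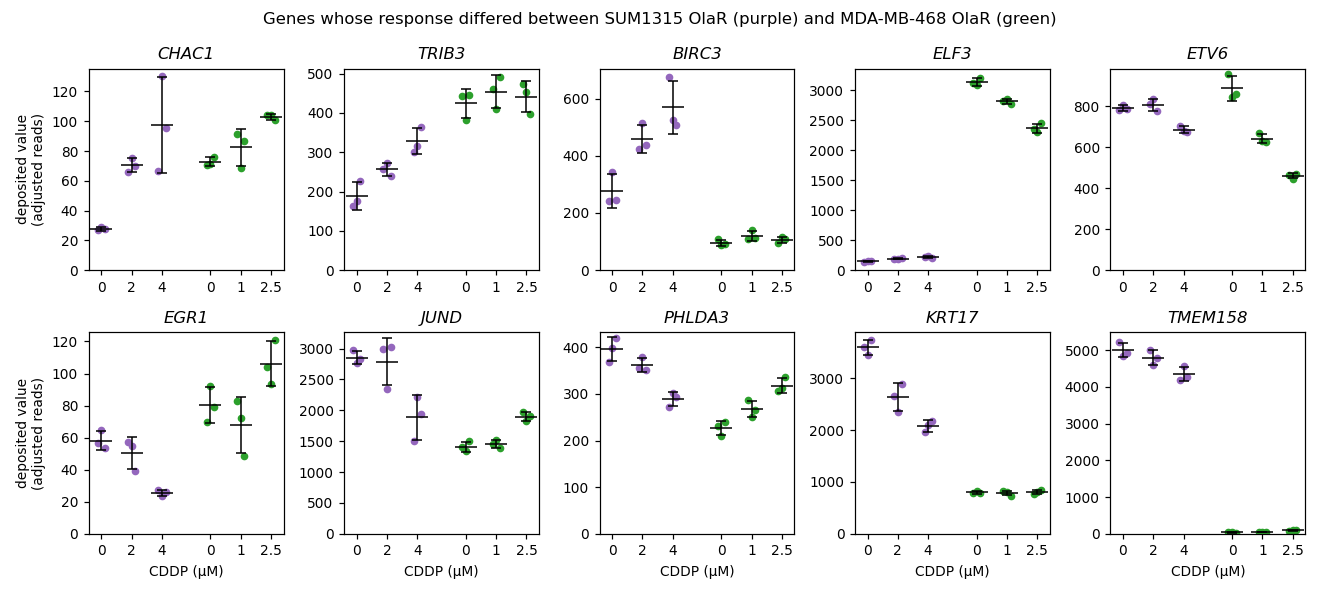
Adjusted read counts of 10 genes whose response differed between the lines, by CDDP dose (horizontal axis, µM), with SUM1315 OlaR in purple and MDA-MB-468 OlaR in green. Points are libraries and bars the mean and SD of 3, and the top row holds genes with the higher response in SUM1315 and the bottom row those with the lower one.

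Several other genes had the lower response in SUM1315. KRT17, a basal keratin, had 3612, 3447 and 3733 adjusted read counts in OlaR SUM1315 and 1965, 2103 and 2186 with CDDP, and 789, 827 and 777 against 774, 807 and 836 in MDA-MB-468. It fell by 0.79 ± 0.08 in SUM1315 and was at 0.01 ± 0.09 in MDA-MB-468, where the groups overlapped, a difference of -0.80 ± 0.11 (adjusted p = 7.69e-06, limma). FSCN1, the actin bundling fascin gene, had 6511, 6611 and 7519 against 4012, 4940.1 and 4120.0 in SUM1315 and 914, 791 and 909 against 1113, 1109.7 and 1137 in MDA-MB-468. It fell by 0.66 ± 0.11 in SUM1315 and differed by -1.03 ± 0.17 (adjusted p = 1.50e-04). TMEM158, a membrane protein gene, had 5226, 4848 and 4921 against 4196, 4567 and 4265 in SUM1315, and 40.6, 46.1 and 32.1 against 88.1, 94.1 and 102 in MDA-MB-468. It rose by 1.25 ± 0.28 in MDA-MB-468 (adjusted p = 8.26e-04), was at -0.20 ± 0.09 in SUM1315 (adjusted p = 0.145), and the difference was -1.46 ± 0.25 (adjusted p = 2.34e-04). MRFAP1L1 fell by 0.45 ± 0.11 and rose by 0.35 ± 0.08, a difference of -0.81 ± 0.14 (adjusted p = 2.34e-04). RHEBL1, a RHEB-like GTPase gene, had 76.2, 89.8 and 94.7 against 87.7, 89.1 and 119.9 in SUM1315 and 33.6, 35.5 and 35.1 against 93.9, 107 and 89.6 in MDA-MB-468, and differed by -1.27 ± 0.29 (adjusted p = 0.00415).

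The genes MT1X and MT2A encode metallothioneins, which bind zinc and copper. MT1X had 1656, 1532 and 1591 adjusted read counts in OlaR SUM1315 and 956, 814 and 786 with CDDP, and 207, 216 and 187 against 198, 196 and 199 in MDA-MB-468. It fell by 0.91 ± 0.09 in SUM1315 and was at -0.04 ± 0.12 in MDA-MB-468, where the groups overlapped, a difference of -0.87 ± 0.14 (adjusted p = 1.50e-04, limma). MT2A had 39209, 39656 and 39096 against 27289, 26877 and 25964 in SUM1315 and 2199, 2336 and 2219 against 1926, 1974 and 2145 in MDA-MB-468, with no overlap. Its log2 fold changes were -0.56 ± 0.08 and -0.16 ± 0.05 (adjusted p = 5.02e-06 and 0.0264), the latter over 0.05 in edgeR and when any 1 of 3 libraries was left out, and the difference was -0.40 ± 0.08 (adjusted p = 9.92e-04). Metallothionein genes are close copies of each other, so reads may be split between them. The list of 21 NRF2 and metallothionein genes had medians of 0.14 and 0.05. OSGIN1 was its 1 DEG in each line, where 0.929% and 0.738% of all genes were higher DEGs. Of its 16 genes tested in both lines, by the adjusted p alone 7 were higher and 3 lower in SUM1315. In MDA-MB-468, 3 were higher and 3 lower. Over all genes tested in both lines, 7.59% were higher and 9.43% lower in SUM1315, and 7.73% and 11.4% in MDA-MB-468.

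Other lists are given by their counts, against DEG shares of 3.82% and 2.39% of all genes. The 17 BCL2 family genes, of which 15 were tested in each line, had 2 higher DEGs in SUM1315 (BCL2L2, PMAIP1) and 1 lower in MDA-MB-468 (BCL2), with medians of 0.06 and 0.06. Of the 30 interferon genes, 27 were tested in SUM1315, with 2 higher (IFI44, IFI44L) and 1 lower (IFI27) and a median of 0.20, and 20 in MDA-MB-468, with no DEG and a median of 0.36. The calls of IFI44 and IFI44L were lost in 3 count tests and without 2 and 1 single libraries, and that of IFI27 in 2 count tests and without 1. The 22 cholesterol synthesis genes had no DEG and medians of -0.20 and 0.00. The 22 hypoxia and glycolysis genes had medians of -0.04 and 0.12 and 1 DEG, ADM, which encodes the vasodilator adrenomedullin. ADM had 156, 139 and 131 adjusted read counts in OlaR SUM1315 and 209, 197 and 253 with CDDP, and 50.5, 33.5 and 30.9 against 99.8, 94.4 and 114 in MDA-MB-468. It rose in MDA-MB-468 by 1.43 ± 0.17 (adjusted p = 2.75e-09, limma) and no groups overlapped.

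**Figure D5:**
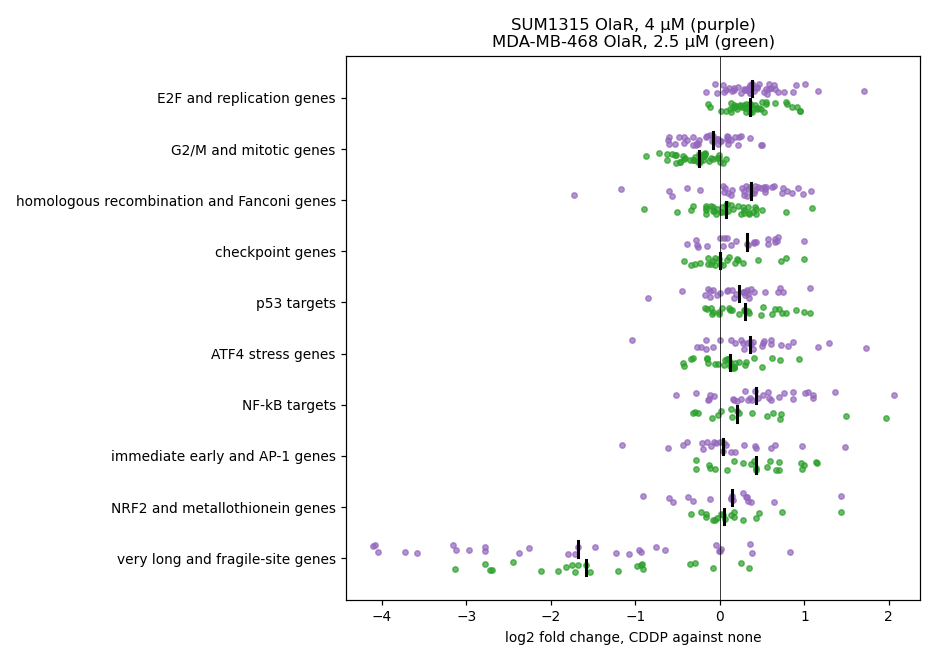
Each point is a gene of 1 of 10 lists, with its log2 fold change with CDDP on the horizontal axis, in SUM1315 OlaR (purple) and MDA-MB-468 OlaR (green), and black bars are list medians. The very long and fragile-site genes lie to the left in both lines (medians -1.68 and -1.59), the E2F and replication genes to the right (0.38 and 0.35).

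The genes with the largest changes at a mean value of at least 50 add few others. In MDA-MB-468, PRKCE, a protein kinase C gene of 537 kb, had 45.9, 64.3 and 51.1 adjusted read counts without and 6.60, 8.68 and 11.6 with CDDP and fell by 2.48 ± 0.25 (adjusted p = 9.93e-11, limma). In SUM1315 it had 35.0, 22.8 and 34.4 against 9.43, 22.4 and 21.7, and the difference of 1.66 ± 0.44 (adjusted p = 0.0152) was over 0.05 without MDA-MB-468 CDDP replicate 1 (1.48) and SUM1315 OlaR replicate 2 (1.46). SHANK2, a scaffold gene of synapses, had 106, 113 and 103 against 17.2, 8.96 and 9.38 in MDA-MB-468 and at most 3 reads in any SUM1315 library. C1orf61 had 10.96, 19.1 and 9.998 against 61.8, 52.2 and 51.6 in MDA-MB-468 and no read in SUM1315. In SUM1315, TRAPPC9, a trafficking complex gene of 731 kb, had 75.4, 69.5 and 93.7 against 2.80, 6.72 and 8.97 and fell by 3.59 ± 0.40 (adjusted p = 6.09e-08), and in MDA-MB-468 it fell by 1.92 ± 0.20. Its difference of -1.67 ± 0.46 (adjusted p = 0.0177) was -1.27 (adjusted p = 0.1) without SUM1315 CDDP replicate 1. ZGRF1, a helicase gene, had 55.0, 15.9 and 31.1 against 69.8, 68.3 and 78.3 in SUM1315, a log2 fold change of 1.23 ± 0.30 that was 0.78 (adjusted p = 0.074) without OlaR replicate 2.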

How the data were processed

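RNA of the 12 libraries was sequenced with a 3′ end method (QuantSeq). Per the labels and methods, the authors used CASAVA 1.8.2, FastQC, STAR, HTSeq and edgeR with build hg38. The deposited table holds 27470 genes by 54 libraries as a signal, that is, edgeR pseudo-counts adjusted by the authors to a common library size of 5585170. Whole reads were recovered for 100% of its 1483380 values (tolerance 1e-06). Library depth was 2070301 to 4676284 reads. Deposited tables of the authors' own comparisons (log2 fold changes, p-values and FDR) were not used.

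A count test had been planned, but since the values were adjusted, log2(value + 1) was fitted with limma 3.58.1 (R 4.3.3, trend), per line over 27 libraries, keeping genes that reached a value of 10 in 3 or more libraries. Fold changes are on this scale, which understates those of low genes. Each fit holds 1 spread per gene for all its conditions, also where the libraries of a group varied more. The difference of the responses was tested over 54 libraries without a fold limit. Its SE comes from that fit, with 1 spread per gene for both lines, and does not follow from the SEs of the line fits. It can be below the SE of a line, as for TMEM158. edgeR 4.0.16 and DESeq2 1.42.0 on recovered reads, other pseudocounts, filters, scalings and fold limits, a replicate block and leaving out each library were alternatives. The limma steps were also run on simulated reads with the same dispersion in every library, which real groups did not have, and no result here rests on that run. Gene spans and promoters came from RefSeq GRCh38.p14, where 25192 names matched a current and 1225 an older symbol, 1053 none, and 27 had been turned into dates.

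Named genes were the shared DEGs with the largest smaller change of the lines and no overlap (8 a direction), the 8 genes of each sign with the smallest p of the difference, list members that were DEGs or differed, genes the study names for CDDP, and the 5 DEGs of each sign with the largest change per line. RRM2, CDC6, CCNB1, DUSP19 and GNB1L, named to describe a group of genes, were chosen after their values were seen. This comparison, its members, the gene lists and the look at span were proposed with earlier results of these data known, although the rule that assigns libraries uses labels only. Same-numbered libraries did not deviate together (r -0.00688 to 0.0497), so they were not paired.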

Additional observations from a re-analysis of the deposited data

Results flagged for a closer look

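The response to CDDP differed between the OlaR lines in 771 genes by limma's test of the difference (Benjamini-Hochberg). The values that follow are the SUM1315 minus the MDA-MB-468 response on the log2 scale, for called genes whose difference is given as a value above.

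The SUM1315 response was higher for IKZF2 (1.64), PRKCE (1.66), CHAC1 (1.23), KIF14 (1.00), ELF3 (0.98), ATR (0.96), FOXP1 (0.95), ERGIC2 (0.92), BIRC3 (0.90), ATP1B1 (0.84), ATM (0.78), ARHGAP29 (0.77), TRIB3 (0.75), ETV6 (0.74), NUPR1 (0.74), SLC7A11 (0.71), TNFAIP2 (0.70), ASPM (0.57) and ANLN (0.51).

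The SUM1315 response was lower for IMMP2L (-2.02), TRAPPC9 (-1.67), PTPRG (-1.61), GMDS (-1.56), EGR1 (-1.56), TMEM158 (-1.46), RHEBL1 (-1.27), NFKB2 (-1.20), SPRY2 (-1.17), EXOC4 (-1.11), JUND (-1.04), FSCN1 (-1.03), PHLDA3 (-0.94), MT1X (-0.87), MRFAP1L1 (-0.81), KRT17 (-0.80), CDKN1A (-0.77) and MT2A (-0.40).

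The differences of IMMP2L, TRAPPC9, PRKCE, BIRC3 and CDKN1A were over an adjusted p of 0.05 without single libraries, as given beside their values above.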

How the results depend on the processing

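With a log2 fold change of at least 2, DEGs were 137 in SUM1315, 51 in MDA-MB-468 and 8 in both, and lower DEGs of at least 200 kb were 78 and 30. With no limit on the fold change these were 2199, 2427, 608, 364 and 447. The genes that differed between the lines were 470 with edgeR (TMM), 493 with edgeR and DESeq2 size factors, and 190 with a difference of at least 1. With only the groups compared in each fit, DEGs were 394 in SUM1315, 334 in MDA-MB-468 and 74 in both, and 987 genes differed. Between replicates, the chi-square of reads per degree of freedom was 3.31 to 6.43 in SUM1315 with 4 µM CDDP. It was 1.60 to 2.63 in the other groups compared. In the 12 fits that left out a library, DEGs were 427 to 502 in SUM1315, 264 to 311 in MDA-MB-468 and 74 to 79 in both, and 497 to 773 genes differed, the fewest without replicate 1 of SUM1315 with 4 µM CDDP. Higher DEGs moved by over 1.5 times, from 122 in SUM1315 to 77 without the same library and to 67, 70 and 74 in the count tests, and from 96 in MDA-MB-468 to 55 with a pseudocount of 5, 60 with DESeq2 and 149 with no filter. The cause was not tested. Counts over gene lists and spans were recomputed by choice after seeing the data. Without a library, the replication genes higher in both lines were 11 to 16, mitotic genes lower in MDA-MB-468 were 22 to 25, and lower DEGs of at least 200 kb were 178 to 198 and 130 to 144.

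With the replicate number as a block, the counts were 501, 307 and 79 DEGs and 769 genes that differed. The numbers do not pair the libraries, and the block moved no count by over 1.5 times.

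Of 237 results called for named genes, 149 kept the call under every alternative other than the fold limits, 0 reversed, 39 were lost in at least one count test and 83 without at least one library. Depth limits genes of few reads, and 9 of the 77 shared lower genes had at most 3 reads in every library of a CDDP group.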
